A study of Danio rerio with 24 samples.

Results

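The mitosis, kinetochore and cytokinesis genes described here are a list of 50 zebrafish gene symbols, matched by the gene name given in the deposited expression tables. The list was chosen with earlier results of these data known, so the shares of all genes given beside its counts are descriptive. Of the 50 symbols, 49 matched, and ube2c matched 2 entries, so the set holds 50 entries on 22 chromosomes among 32520 entries in all. The symbol incenp matched no gene name. RNA came from wildtype zebrafish taken at 120 hours post fertilisation (hpf), and the labels call the material whole embryo. From 0.75 hpf the fish had been kept in perfluorohexane sulfonate (PFHxS), a persistent fluorinated surfactant, at 0, 0.0025 or 25 µM, and all fish, vehicle fish included, were in 0.1% dimethyl sulfoxide (DMSO). Each dose was given in constant darkness (24 h of dark per day) or under a cycle of 14 h of light and 10 h of dark, which makes 6 groups of 4 libraries, 24 in all. The photoperiod follows the sample titles, since the treatment text names darkness for every sample. The dark and the cycle libraries carry different library name series and were deposited in separate tables, so photoperiod and library series cannot be told apart. The number of fish per library is not given, and where replicates are not stated to be separate clutches the p-values measure only the spread between libraries, which may be technical.

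Cell division is driven by cyclin-dependent kinase 1 and its cyclins, which rise before mitosis and are destroyed as it ends. Condensin and topoisomerase compact and untangle the chromosomes, the kinetochore ties each chromosome to spindle microtubules, and the spindle checkpoint holds back the anaphase-promoting complex until all are attached. The central spindle and the contractile ring then divide the cell. Transcripts of these genes are made mainly in the G2 and M phases, so in a whole larva their level follows the cells that are still dividing, such as those of the brain and retinal margin, epidermis, gut and blood. In bulk RNA, fewer dividing cells and less of the RNA in each such cell cannot be told apart.

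Depth, as fragments assigned to genes, was 8.44 to 14.5 M in darkness (median 9.05 M) and 10.1 to 18.5 M under the cycle (median 12.2 M). Levels are given as FPKM (fragments per kilobase of gene length at a common library size, scaled by the authors within each table), and differences as log2 fold changes of FPKM + 0.1 with their standard error (SE). Markers of neuron, muscle, liver, lens, intestine, epidermis and pancreas were abundant, as in a whole animal (crybb1, a lens crystallin, averaged 2084 FPKM in dark vehicle libraries). The erythrocyte markers hbaa1, hbba1 and alas2 were at or near 0 (their summed level was at most 0.506 FPKM in any library), and none was tested. Other globin genes were not read, so these values alone do not show whether red cell RNA was present. Of the 50 entries, 45 passed the filter of at least 0.5 FPKM in at least 4 libraries within each photoperiod. The other 5 were near the floor of detection. No fragment was counted for cks2, 1 for espl1 (separase) and 5 for plk1 (Polo-like kinase) over all 24 libraries, so nothing can be said of the transcripts of these genes. Why so few fragments were counted was not tested. The remaining pair, pttg1 (securin) and ncapg (a condensin subunit), had 0 to 16 and 0 to 26 fragments per library.

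At 25 µM PFHxS in darkness, transcripts of nearly the whole set were lower. Of the 45 entries tested, 43 were lower and 0 were higher than in dark vehicle libraries (limma, Benjamini-Hochberg adjusted p below 0.05), against a background of 9.6% of all 19058 tested genes called lower and 12.2% higher. The median log2 fold change was -1.41, against -0.01 over all tested genes. In 42 of the 45 tested entries (43 of all 50) all 4 exposed libraries lay below all 4 vehicle libraries, where 11.8% of all tested genes showed this. Summed over the set without 1 of the ube2c entries described below, the level was 318 ± 9.05 FPKM in dark vehicle libraries and 124 ± 35.2 FPKM at 25 µM (SD, n = 4), which is 39.0% of the vehicle sum. With that entry included it was 44.7%.

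**Figure D1:**
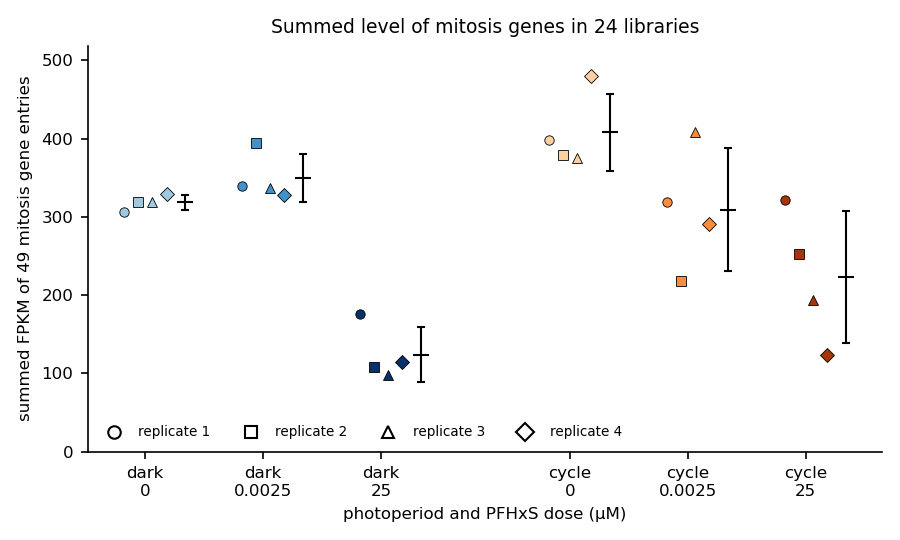
Summed FPKM of 49 mitosis gene entries (without the ube2c entry ENSDARG00000101618) in each of 24 libraries, by photoperiod and PFHxS dose; symbols mark the replicate number and bars the group mean ± SD (n = 4). The 25 µM dark libraries lie between 98.1 and 176, below every dark vehicle library, while the 25 µM cycle libraries spread from 124 to 322.

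The cyclin-CDK engine fell throughout. All 6 of its tested genes were lower at 25 µM in darkness, with log2 fold changes from -1.78 to -1.32. For ccnb1, cyclin B1 (chromosome 5), the dark vehicle libraries read 12.2, 10.4, 13.4 and 11.96 FPKM and the 25 µM libraries 7.32, 4.18, 3.61 and 4.59 FPKM. The groups did not overlap, and the change was -1.32 ± 0.18 (limma, adjusted p = 0.000293). For cks1b (chromosome 19), a small subunit that docks substrates on the kinase, dark vehicle libraries read 8.63, 6.85, 5.02 and 8.14 FPKM and exposed libraries 3.04, 1.21, 2.26 and 3.21 FPKM. Every exposed library was below the lowest vehicle library, with a change of -1.58 ± 0.27 (limma, adjusted p = 0.00134). The largest changes of the group were in ccna2 (cyclin A2, active from S phase into early mitosis), from 6.22 ± 0.175 to 1.84 ± 0.757 FPKM (SD, n = 4; -1.78 ± 0.20, limma adjusted p = 7e-05), and in ccnb2 (cyclin B2), from 3.14 ± 0.996 to 0.922 ± 0.350 FPKM (-1.66 ± 0.27, limma adjusted p = 0.000952). Cyclin B3 (ccnb3) and cdk1 itself fell by 1.33 and 1.45 on the log2 scale.

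Among the mitotic kinases and spindle checkpoint genes all 5 tested fell. For mad2l1 (chromosome 7), which encodes the checkpoint protein Mad2 that sequesters Cdc20, dark vehicle libraries read 15.3, 14.8, 13.2 and 14.2 FPKM and 25 µM libraries 7.19, 7.09, 4.01 and 2.90 FPKM. Its change was -1.52 ± 0.24 (limma, adjusted p = 0.000676). The checkpoint genes bub1 and ttk and the spindle-pole kinase aurka moved by -1.39, -1.45 and -1.37. The gene bub3, whose protein carries Bub1 to kinetochores, was the most abundant of this group and changed least. Its dark vehicle libraries read 18.2, 22.3, 22.1 and 25.8 FPKM and its exposed libraries 16.5, 13.7, 11.9 and 15.6 FPKM, groups that did not overlap (-0.61 ± 0.12, limma adjusted p = 0.00255).

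The chromosomal passenger complex corrects faulty attachments and later marks the cleavage site. Its kinase aurkb (Aurora B, chromosome 14) read 9.14, 10.8, 10.1 and 9.05 FPKM in dark vehicle libraries and 4.86, 3.005, 3.32 and 2.15 FPKM at 25 µM (-1.58 ± 0.18, limma adjusted p = 8.51e-05). Its subunit birc5a (survivin, chromosome 12) read 5.23, 6.01, 4.40 and 5.82 FPKM and 2.37, 1.65, 1.34 and 1.43 FPKM in the same groups (-1.63 ± 0.19, limma adjusted p = 0.000102). With cdca8 (borealin, -1.41), all 3 subunits fell, and in none did the groups overlap. The scaffold subunit, inner centromere protein, is the member whose symbol was not found. The tables describe an entry named CABZ01058261.1 as inner centromere protein, and this entry, looked up after the values of the set were seen and not counted in it, went from 13.2 ± 1.76 to 4.58 ± 1.57 FPKM (SD, n = 4; -1.55 ± 0.19, limma adjusted p = 0.000132). Likewise an entry named CKS2 in capitals, not counted in the set, went from 9.04 ± 0.929 to 4.27 ± 1.58 FPKM (-1.13 ± 0.25, limma adjusted p = 0.00555).

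All 7 kinetochore genes fell, 4 of them encoding the subunits of the Ndc80 complex that grips the microtubule. For ndc80, dark vehicle libraries read 8.19, 8.47, 8.07 and 6.80 FPKM and exposed libraries 5.03, 2.26, 1.23 and 3.37 FPKM (-1.54 ± 0.31, limma adjusted p = 0.00346). For its partner nuf2 (chromosome 11) they read 7.19, 8.46, 7.17 and 7.34 FPKM and 4.01, 2.57, 3.24 and 2.42 FPKM (-1.30 ± 0.16, limma adjusted p = 0.000159). The inner pair of the complex moved unequally, spc24 by -1.43 ± 0.20 and spc25 by -0.66 ± 0.14, the second from 2.82 ± 0.371 to 1.74 ± 0.142 FPKM (SD, n = 4). The largest change of the whole set was in cenph, a constitutive centromere subunit on chromosome 8 from 17167876 to 17173694, from 1.88 ± 0.451 to 0.383 ± 0.198 FPKM (-2.14 ± 0.35, limma adjusted p = 0.000977), on a low count of 1 to 23 fragments per library. The large kinetochore proteins cenpe (a motor) and cenpf changed by -1.37 and -1.56.

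Spindle motors and assembly factors fell in 7 of 7 genes, within the narrow range of -1.49 to -1.22. For kif11 (Eg5, the motor that pushes spindle poles apart, chromosome 17) dark vehicle libraries read 14.1, 10.7, 12.9 and 11.8 FPKM and 25 µM libraries 6.68, 4.37, 2.52 and 4.65 FPKM (-1.49 ± 0.22, limma adjusted p = 0.000441). For nusap1 (chromosome 13), which bundles microtubules near chromosomes, they read 17.3, 18.6, 17.5 and 19.0 FPKM and 10.1, 6.18, 5.35 and 5.53 FPKM (-1.45 ± 0.17, limma adjusted p = 0.000102). The smallest adjusted p of the set was that of tpx2, an activator of Aurora A (-1.38 ± 0.14, limma adjusted p = 2.67e-05). The kinesins kif4, kifc1, kif22 and kif2c moved by -1.49, -1.48, -1.34 and -1.22. The nusap1 gene overlaps ndufaf1 on the other strand, an entry with 11879 fragments against 9649 for nusap1, and whether counting used strand is not given.

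Anaphase is triggered by Cdc20 and the ubiquitin-conjugating enzyme Ube2c. The activator cdc20 changed by -1.47 ± 0.25 (limma, adjusted p = 0.0011). The name ube2c is carried by 2 adjacent entries on chromosome 6 with 2236 bases and 0 other entries between them. The entry ENSDARG00000114670 (55287823 to 55297274), described as holding a ubiquitin-conjugating domain, read 17.7, 20.6, 21.8 and 21.5 FPKM in dark vehicle libraries and 8.91, 4.58, 5.31 and 4.21 FPKM at 25 µM (-1.87 ± 0.19, limma adjusted p = 3.26e-05). The entry ENSDARG00000101618 (55299511 to 55309190), which is 489 bases long and whose protein match in the tables is Dnttip1, read 24.5, 22.6, 24.5 and 29.0 FPKM in vehicle and 27.3, 32.7, 27.1 and 31.2 FPKM at 25 µM. These groups overlapped, and its change of 0.23 ± 0.11 did not pass the test (limma, adjusted p = 0.165). It was the most abundant entry of the set (mean of 27.4 FPKM over 24 libraries) and the only entry tested with a positive value. Sums over the set are given without it, a choice that rests on its values and makes the fall of the sums larger. With it, the sum was 344 ± 10.9 FPKM in dark vehicle libraries and 154 ± 34.1 FPKM at 25 µM in darkness (SD, n = 4).

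Of the 7 chromosome condensation and chromatin genes tested, 6 fell. For top2a (topoisomerase II alpha), dark vehicle libraries read 15.5, 16.8, 14.99 and 13.7 FPKM and exposed libraries 8.20, 4.44, 4.03 and 4.58 FPKM (-1.56 ± 0.19, limma adjusted p = 0.000124). For mki67, which encodes the Ki-67 coat of mitotic chromosomes used as a proliferation marker, they read 13.6, 13.1, 13.9 and 15.1 FPKM and 8.14, 3.91, 3.21 and 4.86 FPKM (-1.54 ± 0.22, limma adjusted p = 0.000332). The genes ndc80 and mki67 are neighbours on chromosome 12, 647 bases apart with 0 entries between, and top2a lies 325489 bases beyond with 12 entries between. The condensin genes smc2, smc4, ncapd2 and ncapd3 moved by -1.32, -1.23, -1.39 and -1.10. The kleisin subunit ncaph did not pass the test (-0.16 ± 0.63, limma adjusted p = 0.885), with vehicle libraries from 0.161 to 2.33 FPKM and exposed libraries from 0.275 to 0.774 FPKM.

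All 7 central spindle and cytokinesis genes fell, by -1.57 to -1.07. For prc1b (chromosome 7), which crosslinks the antiparallel microtubules of the midzone, dark vehicle libraries read 5.20, 5.26, 5.32 and 4.80 FPKM and 25 µM libraries 2.14, 2.35, 0.823 and 1.81 FPKM (-1.57 ± 0.24, limma adjusted p = 0.00062). Its paralog prc1a moved by -1.33 ± 0.21. For anln (anillin, the scaffold of the contractile ring, chromosome 19) the same groups read 5.42, 4.82, 4.76 and 5.14 FPKM and 2.99, 2.11, 1.55 and 2.25 FPKM (-1.18 ± 0.16, limma adjusted p = 0.000287). The centralspindlin genes racgap1 and kif23 moved by -1.50 and -1.07, and the cytokinesis gene ect2 and the kinesin kif20a by -1.15 and -1.25. Of the entries that passed the test, kif23 was the only one whose groups overlapped, with vehicle libraries from 0.763 to 2.30 FPKM and exposed libraries from 0.496 to 1.04 FPKM.

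**Figure D2:**
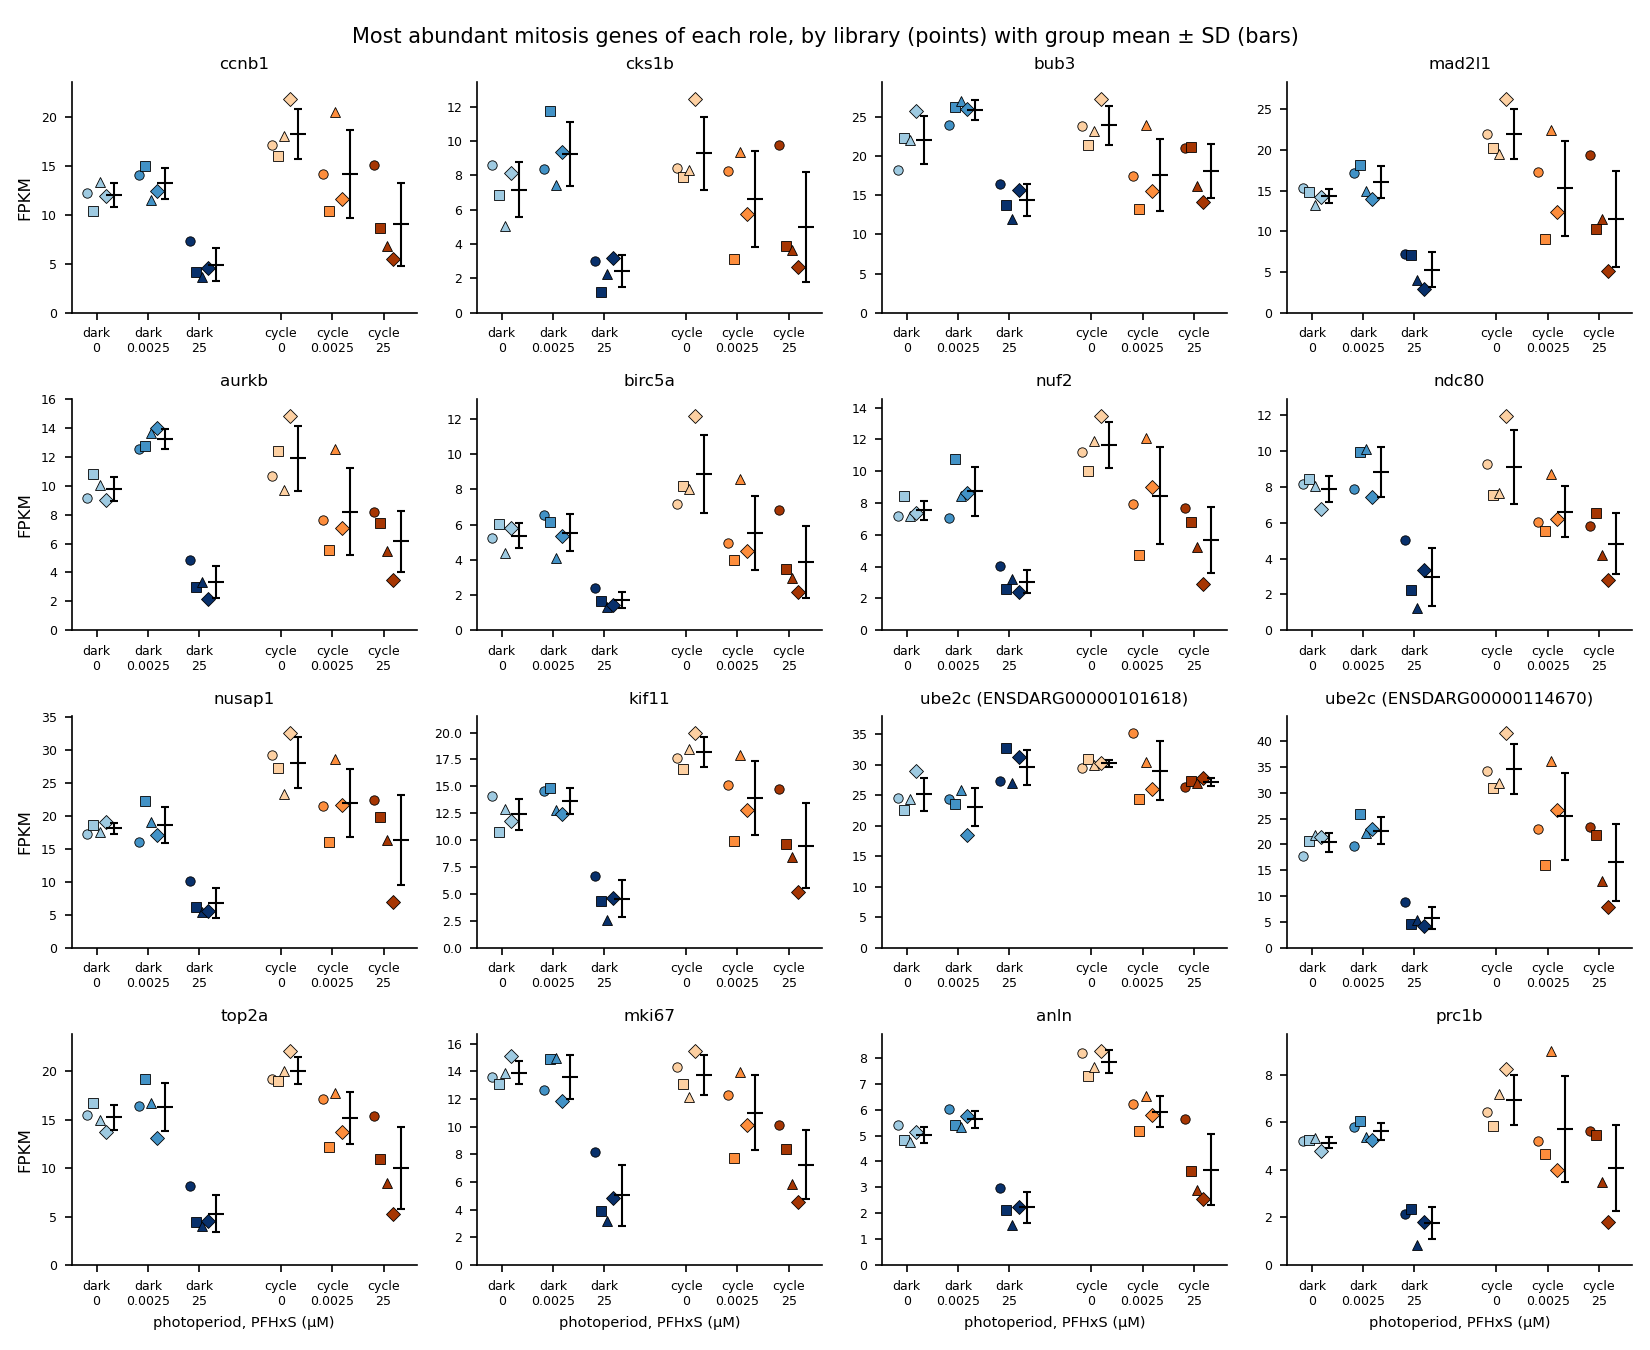
FPKM of the 2 most abundant entries of each role in 24 libraries, by photoperiod and PFHxS dose (µM); points are libraries, with symbols for the replicate number, and bars give the group mean ± SD (n = 4). In darkness 15 of the 16 entries show 4 exposed libraries below 4 vehicle libraries at 25 µM, and the exception is the ube2c entry ENSDARG00000101618.

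Under the light-dark cycle the same dose gave lower values across the set, but few passed the test. Of 45 entries tested, 3 were lower than in cycle vehicle libraries and 0 higher (limma, adjusted p below 0.05; background 0.629% lower and 1.1% higher of 18917 genes). All 45 values were below 0, where 53.6% of tested genes were, and 38 had an unadjusted p below 0.05 (background 16.1%). The median log2 fold change was -0.98, against -0.02 over all tested genes. In 32 entries the exposed and vehicle libraries did not overlap (background 4.65%). The summed level went from 408 ± 49.2 to 223 ± 84.4 FPKM (SD, n = 4), or 54.6% of the vehicle sum. With the ube2c entry ENSDARG00000101618 included it was 57.0%. The count of 3 became 27 when 25 µM cycle replicate 1 was left out (background then 1.72% lower and 2.35% higher), and 0 or 1 when any other single vehicle or 25 µM cycle library was.

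The entries past the threshold were anln, ccnb2 and top2a. For anln (chromosome 19, 35433155 to 35450857), cycle vehicle libraries read 8.20, 7.31, 7.66 and 8.27 FPKM and 25 µM libraries 5.64, 3.63, 2.89 and 2.56 FPKM, without overlap (-1.14 ± 0.20, limma adjusted p = 0.0171). For top2a (chromosome 12, 10706772 to 10740236) they read 19.2, 19.0, 20.003 and 22.1 FPKM and 15.3, 10.9, 8.51 and 5.29 FPKM (-1.10 ± 0.25, limma adjusted p = 0.0495). For ccnb2 (chromosome 7, 30626378 to 30631119) the level went from 4.11 ± 0.522 to 1.77 ± 0.967 FPKM (SD, n = 4; -1.29 ± 0.27, limma adjusted p = 0.0388).

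The other abundant entries had values of like size with a wider spread. The ccnb1 libraries read 17.2, 16.0, 18.1 and 21.9 FPKM in cycle vehicle and 15.1, 8.71, 6.85 and 5.48 FPKM at 25 µM (-1.11 ± 0.28, limma adjusted p = 0.0737). For mad2l1 they read 21.9, 20.2, 19.5 and 26.3 FPKM and 19.4, 10.3, 11.5 and 5.09 FPKM (-1.06 ± 0.35, limma adjusted p = 0.151). In both genes replicate 1 of the 25 µM group lay just under the lowest vehicle library and replicate 4 was the lowest. The same order was seen in kif11 (17.7, 16.7, 18.5 and 19.9 FPKM in vehicle; 14.7, 9.63, 8.41 and 5.15 FPKM exposed) and nusap1 (29.3, 27.3, 23.4 and 32.6 FPKM; 22.4, 19.8, 16.3 and 6.89 FPKM). In mki67 it was 14.3, 13.1, 12.2 and 15.5 FPKM in vehicle and 10.1, 8.43, 5.86 and 4.59 FPKM exposed, and in nuf2 11.2, 10.0, 11.9 and 13.5 FPKM and 7.69, 6.83, 5.24 and 2.92 FPKM. These 4 genes did not pass the test, with limma adjusted p from 0.0597 to 0.166.

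The ube2c entry ENSDARG00000114670 read 34.2, 30.9, 31.9 and 41.5 FPKM in cycle vehicle and 23.5, 21.9, 12.9 and 7.77 FPKM at 25 µM (-1.18 ± 0.32, limma adjusted p = 0.091). Its neighbour ENSDARG00000101618 stayed within 29.5 to 31.0 and 26.3 to 27.9 FPKM (-0.16 ± 0.10, limma adjusted p = 0.48). For aurkb the cycle vehicle libraries read 10.7, 12.4, 9.72 and 14.9 FPKM and the exposed libraries 8.22, 7.41, 5.51 and 3.49 FPKM, and for birc5a 7.16, 8.17, 8.02 and 12.2 FPKM and 6.82, 3.45, 2.97 and 2.19 FPKM. Neither group pair overlapped, and neither gene passed the test (limma, adjusted p = 0.0997 for aurkb and 0.0736 for birc5a). For ndc80 they read 9.26, 7.55, 7.66 and 11.96 FPKM and 5.83, 6.55, 4.19 and 2.78 FPKM (-0.94 ± 0.25, limma adjusted p = 0.0829).

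In cks1b, prc1b and bub3 single exposed libraries reached or neared vehicle levels while others lay well below. For cks1b the exposed libraries read 9.74, 3.89, 3.63 and 2.67 FPKM, the first of them above 3 of the vehicle libraries at 8.44, 7.91, 8.31 and 12.5 FPKM. For prc1b they read 5.63, 5.46, 3.49 and 1.79 FPKM against 6.42, 5.84, 7.18 and 8.27 FPKM, and for bub3 21.0, 21.1, 16.2 and 14.2 FPKM against 23.9, 21.4, 23.2 and 27.4 FPKM. The largest value of the set under the cycle was that of smc2, a condensin ATPase (-1.39 ± 0.37, limma adjusted p = 0.0836), followed by cenph (-1.37 ± 0.47, adjusted p = 0.174). Beside the Dnttip1-matched entry and bub3, the smallest were kif23 (-0.46 ± 0.36) and ncapd3 (-0.46 ± 0.47).

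**Figure D3:**
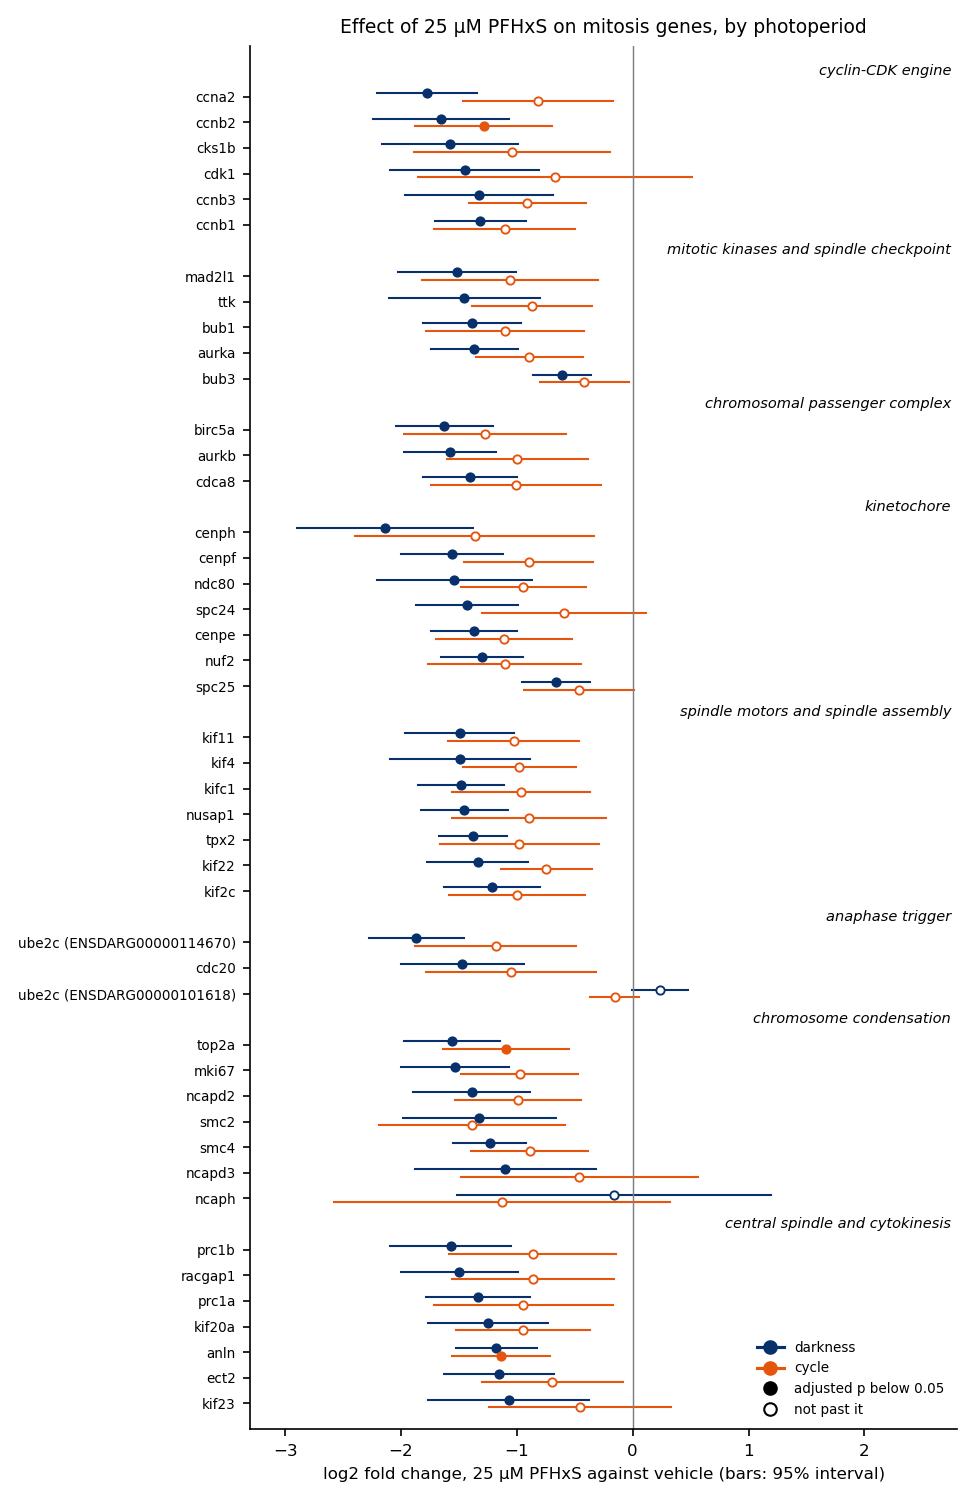
Log2 fold change of 25 µM PFHxS against vehicle for 45 mitosis gene entries, grouped by role; dots are limma estimates in darkness (blue) and under the cycle (orange), bars 95% intervals, and filled dots passed an adjusted p of 0.05. In darkness 43 dots are filled, under the cycle 3 are, and the cycle dots lie to the right of the dark dots in all entries but smc2, ncaph and the ube2c entry ENSDARG00000101618.

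The effect of 25 µM was tested for a difference between photoperiods directly, over all 24 libraries. Of 46 entries tested, 0 passed (limma, adjusted p below 0.05; background 1.16%), and 4 had an unadjusted p below 0.05 (background 13.3%), namely ccna2, spc24, kif22 and the ube2c entry ENSDARG00000101618. The limma-voom test on recovered fragments also called 0 for this difference, and 0 for the low dose comparisons with vehicle that follow. The median difference, darkness minus cycle, was -0.46, with 43 of 46 values below 0 (background 47.1%). The smallest adjusted p was that of ccna2 (-0.96 ± 0.37, limma adjusted p = 0.243). Other large differences were those of pttg1 (-1.33 ± 1.15), ncaph (0.96 ± 0.95) and spc24 (-0.84 ± 0.40). Differences nearest to 0 were those of anln (-0.04 ± 0.26), smc2 (0.07 ± 0.50), nuf2 (-0.19 ± 0.36) and bub3 (-0.19 ± 0.22). A smaller effect under the cycle is therefore not shown for any single entry, and equal effects are not shown either.

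The exposed libraries differed from each other in the same way across the set. At 25 µM in darkness replicate 1 was the highest of its group in 40 of 45 entries and replicate 3 the lowest in 28. Under the cycle replicate 1 was the highest in 40 and replicate 4 the lowest in 40. Such a difference was also seen without PFHxS, where cycle vehicle replicate 4 was the highest of its group in 35 and the lowest in 0. Among dark vehicle libraries, replicate 4 was the highest most often, in 15. Relative to the vehicle mean, the median log2 ratio over the entries was -0.29, -0.68, -1.08 and -1.72 in the 25 µM cycle libraries, replicates 1 to 4, and -0.81, -1.60, -1.71 and -1.38 in the 25 µM dark libraries. Replicate numbers carry no order of their own. Of the tissue and dividing-cell marker lists, 3 put the libraries of both 25 µM groups in the same order as the mitosis sums: basal epidermis, liver, and neural and retinal progenitor. Of 4 basal epidermis markers 1 was lower at 25 µM in darkness, the keratin krtt1c19e (-1.62 ± 0.37, limma adjusted p = 0.00721). The basal epidermis sum was 885, 386, 187 and 480 FPKM in the 25 µM dark libraries (dark vehicle 1135 to 1400) and 1249, 692, 646 and 227 FPKM in the 25 µM cycle libraries (cycle vehicle 758 to 1188). Nearly all of it came from krtt1c19e, which read 877, 377, 178 and 473 FPKM and 1228, 676, 631 and 216 FPKM in these libraries. The order of this list is thus that of 1 keratin gene. Of 3 liver markers 1 was lower in darkness, the apolipoprotein apoa2 (-0.45 ± 0.13, limma adjusted p = 0.0231), and under the cycle fabp10a was higher (0.63 ± 0.13, adjusted p = 0.0379). The liver markers that did not pass were tfa (-0.63) and fabp10a (0.05) in darkness, and apoa2 (-0.48) and tfa (-0.25) under the cycle. The liver sum was 3320, 2403, 1880 and 2489 FPKM in the 25 µM dark libraries (dark vehicle 3055 to 3245) and 3891, 2905, 2882 and 1918 FPKM in the 25 µM cycle libraries (cycle vehicle 2669 to 3736). The neural and retinal progenitor sum was 399, 336, 323 and 359 FPKM (dark vehicle 387 to 465) and 398, 354, 338 and 267 FPKM (cycle vehicle 335 to 387). Other tissue markers lower at 25 µM in darkness were ela2 (pancreatic elastase, -1.01 ± 0.19), cyt1 (an epidermal keratin, -0.98 ± 0.23), vil1 (intestinal villin, -0.66 ± 0.12), gnat2 (cone transducin, -0.46 ± 0.10) and elavl3 (a neuronal RNA-binding protein, -0.35 ± 0.08). Each was the only 1 of 3 tested markers in its list to pass (background 9.6% lower and 12.2% higher). The rest were prss1 (-0.30) and cpa5 (-0.29) for pancreas, and krt4 (-0.998) and krt5 (-1.24) for epidermis. For intestine they were apoa1a (0.08) and fabp2 (-0.20), and for photoreceptor rho (-0.38) and opn1lw2 (-0.03). For neuron they were snap25a (0.04) and elavl4 (-0.05). No skeletal muscle marker passed in darkness (myhz2 -0.09, ckma 0.14, tnnt3b -0.12), and no lens marker did (cryaa 0.17, crybb1 -0.02, crygm2d13 -0.11). The calls are thus of single genes, and the part of these markers and of the lists in the result was not tested.

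**Figure D4:**
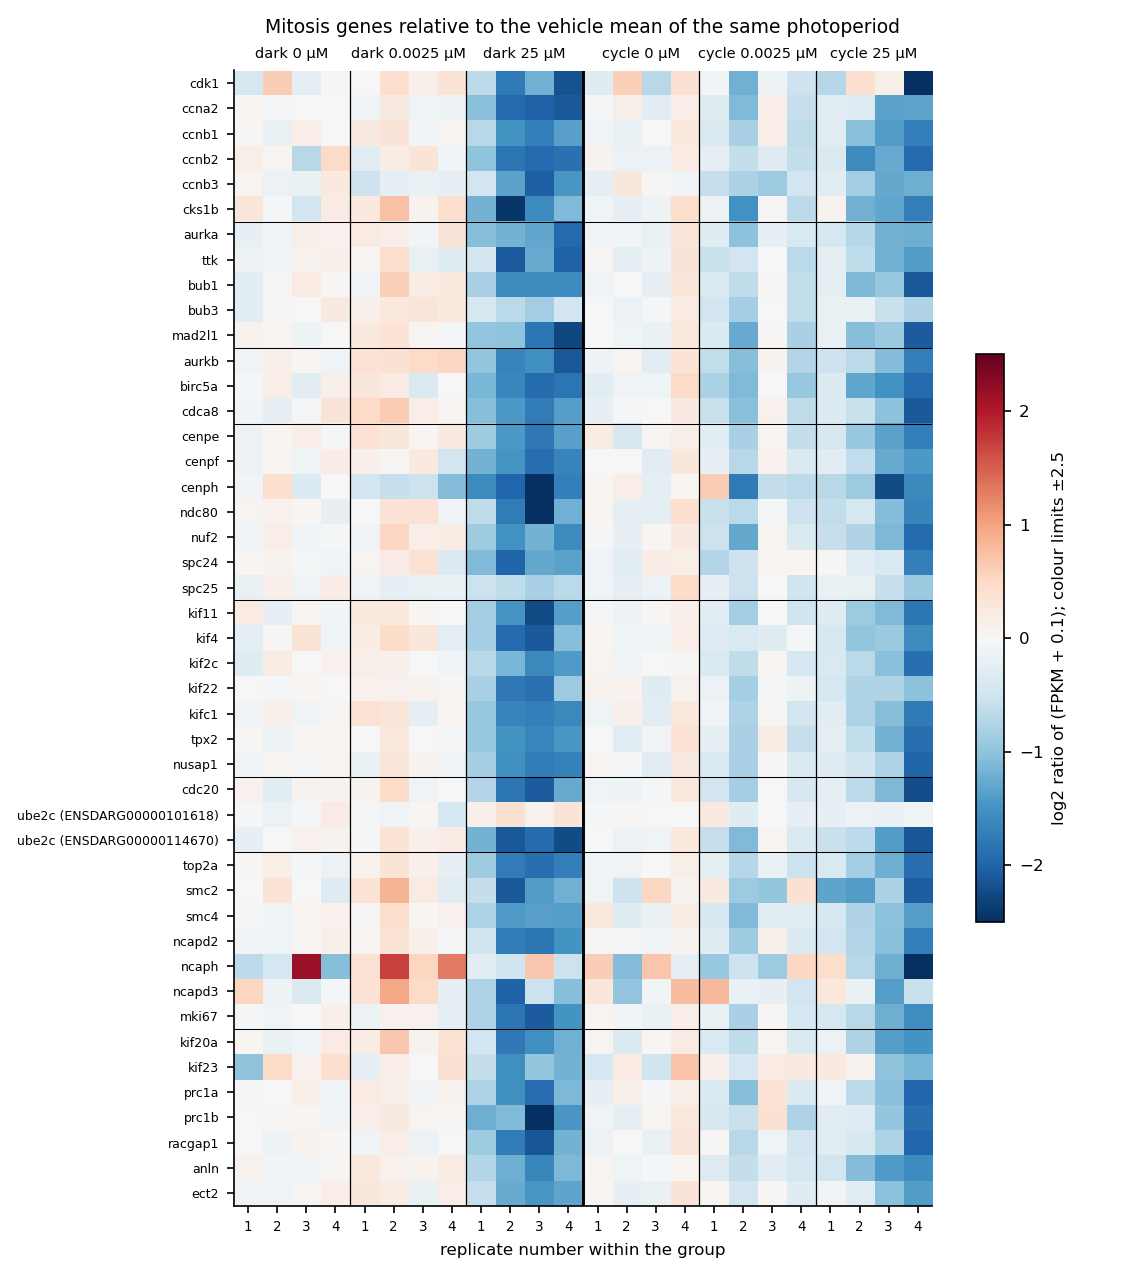
Log2 ratio of FPKM + 0.1 to the vehicle mean of the same photoperiod for 45 mitosis gene entries (lines separate roles) in 24 libraries (columns, numbered by replicate within each group; colours end at ±2.5). The 25 µM columns are mostly blue in both photoperiods; by the median ratio, replicate 1 is the palest of its group in both (-0.81 and -0.29) and replicate 4 the darkest under the cycle (-1.72).

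The low dose of 0.0025 µM gave no call in either photoperiod. In darkness 0 of 45 entries passed (limma; background 0.0105% called lower and 0.0105% higher), 1 had an unadjusted p below 0.05 (background 7.44%), and the median was 0.12. That entry was aurkb, with 12.5, 12.8, 13.7 and 14.0 FPKM at 0.0025 µM, all above the dark vehicle libraries (0.44 ± 0.18, limma adjusted p = 0.633). Next by p were bub3 (24.0, 26.3, 27.0 and 26.0 FPKM; 0.24 ± 0.12, adjusted p = 0.688) and cenph (-0.67 ± 0.35, adjusted p = 0.703). The summed level was 350 ± 30.3 FPKM (SD, n = 4), or 110% of the dark vehicle sum.

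Under the cycle the values at 0.0025 µM lay on the other side of 0. Again 0 of 45 entries passed (limma; background 0%), while 44 values were below 0 (background 53.2%), 5 had an unadjusted p below 0.05 (background 5.44%) and the median was -0.40. The smallest p-values were those of ccnb3 (from 2.29 ± 0.382 to 1.38 ± 0.201 FPKM; -0.69 ± 0.23, limma adjusted p = 0.882), bub3 (17.4, 13.2, 24.0 and 15.6 FPKM; -0.47 ± 0.18, adjusted p = 0.882) and aurka (-0.48 ± 0.21, adjusted p = 0.882). The libraries spread widely, as in ccnb1, which read 14.2, 10.4, 20.5 and 11.7 FPKM, and in ube2c (ENSDARG00000114670), which read 23.0, 15.9, 36.1 and 26.6 FPKM. Replicate 3 was the highest of the group in 32 of 45 entries and replicate 2 the lowest in 38. The difference of the 0.0025 µM effect between photoperiods had a median of 0.48, and 0 of 46 entries passed (limma; background 0.00496%), with 6 at an unadjusted p below 0.05 (background 7.98%). Its smallest adjusted p was 0.479, for bub3 (0.71 ± 0.22), and aurkb had the value 1.02 ± 0.35 (adjusted p = 0.494).

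Set against the low dose in place of the vehicle, 25 µM in darkness gave 43 lower entries and 1 higher of 45 (limma; background 9.42% lower and 11.4% higher), with a median of -1.52. The higher entry was ube2c ENSDARG00000101618 (0.36 ± 0.11, limma adjusted p = 0.0368). The largest were ube2c ENSDARG00000114670 (-2.02 ± 0.19) and aurkb (-2.01 ± 0.18). Under the cycle 0 of 45 passed (limma; background 2.02%), 16 had an unadjusted p below 0.05 (background 15.2%), and the median was -0.56. The smallest adjusted p there was that of anln (-0.73 ± 0.20, limma adjusted p = 0.0793). These comparisons share their 25 µM libraries with those against vehicle.

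The vehicle libraries of the photoperiods were compared across tables, so these values also hold any difference between the library series. In this comparison 1 of 46 entries was lower in darkness and 0 higher (limma; background 10.8% lower and 9.24% higher), the median being -0.31 with 36 values below 0 (background 52%). The entry past the threshold was anln (-0.63 ± 0.18, limma adjusted p = 0.0174). In 17 entries all dark vehicle libraries lay below all cycle vehicle libraries (background 12.4%), among them ube2c ENSDARG00000114670 (-0.76 ± 0.28, limma adjusted p = 0.0598). In 2 they lay above (background 11.9%), cenph (0.72 ± 0.42, adjusted p = 0.239) and the untested ncapg (0.437 to 0.767 FPKM in darkness, 0 to 0.259 FPKM under the cycle). With the fit limited to the vehicle groups, 16 of 45 entries passed, 15 of them lower in darkness (background in that fit 11.5% lower and 10.4% higher).

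Further genes of the division cycle, in lists that do not overlap the set, were read beside it. These lists too were chosen with earlier results of these data known, so their counts are not independent support. Of 87 tested genes of a list of other mitosis genes, 55 were lower and 1 higher at 25 µM in darkness (limma; median -0.94; background 9.6% lower and 12.2% higher). By smallest p these were kif15 (a spindle kinesin, -1.33 ± 0.15), cdca7a (-1.89 ± 0.22), sgo1 (shugoshin, the protector of cohesin, -1.39 ± 0.17), lmnb2 (lamin B2, -0.72 ± 0.09), pbk (a mitotic kinase, -1.44 ± 0.20) and bub1ba (BubR1, -1.08 ± 0.15). The 1 higher gene was fzr1a, an activator of the anaphase-promoting complex in late mitosis and G1 (0.42, limma adjusted p = 0.0125). Under the cycle 2 of 84 were lower (kif15, -0.998, and knstrn, -1.02) and 0 higher, with a median of -0.68 (limma; background 0.629% lower and 1.1% higher). The genes fzr1a and knstrn were named after their values were seen.

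DNA replication genes fell with the set at 25 µM in darkness, 49 lower and 0 higher of 56 tested (limma; median -1.06; background 9.6% lower and 12.2% higher). Examples were chaf1b (a histone chaperone subunit, -1.64 ± 0.18), mcm2 and mcm5 (helicase subunits, -1.50 ± 0.19 and -1.65 ± 0.22), dnmt1 (maintenance DNA methyltransferase, -1.15 ± 0.14), rrm1 (ribonucleotide reductase, -1.40 ± 0.18) and tyms (thymidylate synthase, -1.42 ± 0.19). Under the cycle 1 of 54 passed, dck (deoxycytidine kinase, -0.84, limma adjusted p = 0.0258, named after its value was seen), with a median of -0.60. The background there was 0.629% lower and 1.1% higher. Between the vehicle groups the mitosis set and the replication list parted. In darkness 27 of 56 replication genes were higher than under the cycle and 0 lower (limma; median 0.64; background 9.24% higher and 10.8% lower). The mitosis set had 0 higher and 1 lower. For mcm5, the dark vehicle libraries read 23.5, 26.3, 25.6 and 26.1 FPKM and the cycle vehicle libraries 9.03, 6.25, 5.96 and 11.2 FPKM (1.68 ± 0.26, limma adjusted p = 8.08e-05). The other mitosis genes summed to 538 ± 7.22 FPKM in dark vehicle and 552 ± 37.8 FPKM in cycle vehicle libraries (SD, n = 4). Of those named above by smallest p, cdca7a (1.22), kif15 (0.37) and lmnb2 (0.35) were higher in dark vehicle libraries. The rest, sgo1 (-0.34), pbk (-0.13) and bub1ba (-0.48), did not pass. These genes were picked by a comparison that used the same dark vehicle libraries, which can favour genes high there. Their share is therefore not that of the list. The difference between the lists was not itself tested, and photoperiod and library series cannot be told apart in it.

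**Figure D5:**
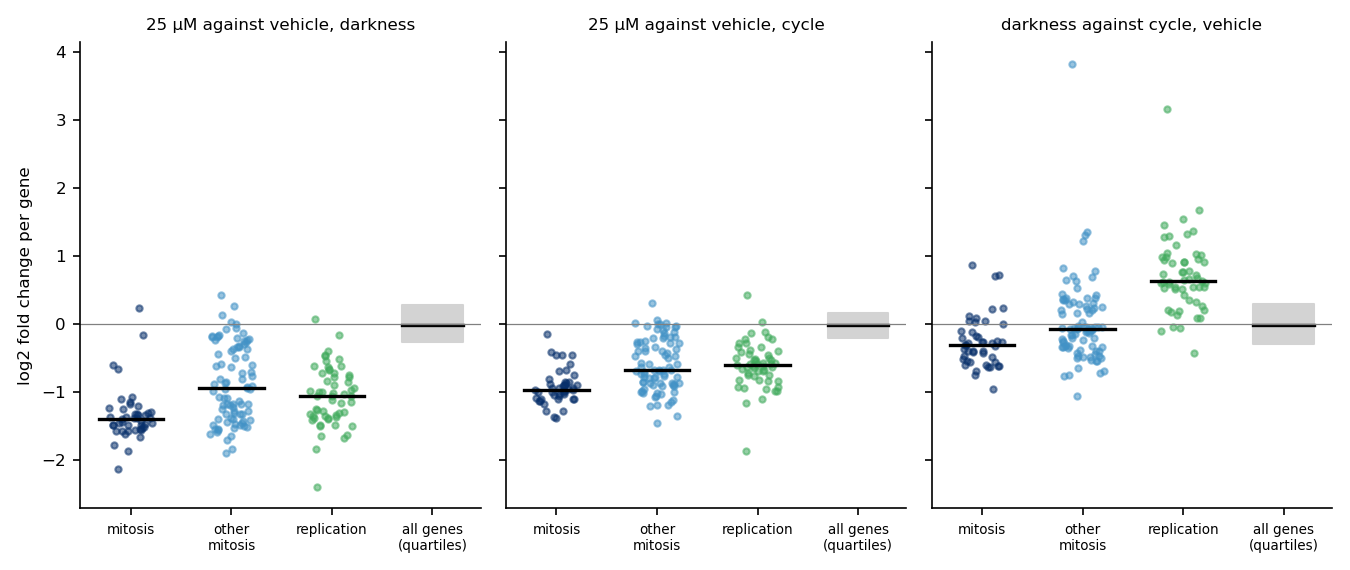
Log2 fold change per gene for the mitosis set, other mitosis genes and replication genes (points, black line at the median), with the quartiles of all tested genes in grey, in 3 comparisons (panels). At 25 µM the medians of the 3 lists lie below 0 in both photoperiods, while in darkness against cycle without PFHxS the median is -0.31 for the mitosis set and 0.64 for replication.

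Of 58 tested cell cycle control genes, 16 were lower and 8 higher at 25 µM in darkness (limma; median -0.23; background 9.6% lower and 12.2% higher), so the share called higher was near that of all genes. The antiproliferative genes tob1b and btg1 were higher, from 127 ± 4.29 to 237 ± 11.4 FPKM and from 122 ± 4.87 to 246 ± 47.8 FPKM (SD, n = 4), with changes of 0.90 ± 0.07 (limma adjusted p = 3.88e-06) and 0.99 ± 0.12 (adjusted p = 0.000102). Lower were e2f1 (a transcription factor of S phase entry, -1.85 ± 0.27), cdk2 (-1.34 ± 0.20), cdc25b (the phosphatase that activates Cdk1, -0.77 ± 0.12) and ccnd1 (cyclin D1, -0.44 ± 0.07). Under the cycle 0 of 57 passed (limma; 17 at an unadjusted p below 0.05, background 16.1%), with 0.37 ± 0.13 for tob1b and 0.34 ± 0.12 for btg1. The CDK inhibitor gene cdkn1a (p21), named after its values were seen, did not pass in either photoperiod, with 47.5 ± 5.72 and 44.4 ± 10.6 FPKM in dark vehicle and 25 µM libraries and 94.6 ± 13.6 and 94.1 ± 7.61 FPKM under the cycle.

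Markers of cell types that hold dividing cells were read at 25 µM in darkness as well. Against a background of 9.6% lower and 12.2% higher, these lists are too short for their counts to be read as more than single genes. Of 13 tested neural and retinal progenitor markers 2 were lower (limma; median -0.19). These were fabp7a (-0.70 ± 0.13, limma adjusted p = 0.00237) and insm1a (-0.62 ± 0.11, limma adjusted p = 0.00152). Dark vehicle and 25 µM libraries held 207 ± 25.5 and 128 ± 23.9 FPKM of fabp7a. For gfap, also abundant, they held 90.8 ± 8.30 and 106 ± 8.49 FPKM, a change that did not pass (0.22 ± 0.09, limma adjusted p = 0.0864). Of 12 blood progenitor and leukocyte markers 2 were lower and 0 higher. These were rag2 (-1.12 ± 0.29, limma adjusted p = 0.0143) and rag1 (-0.73 ± 0.22, limma adjusted p = 0.0332). Of the rest, which did not pass, ikzf1 (-0.52), myb (-0.21) and gata2a (-0.10) were below 0. Above 0 were mpeg1.1 (0.81), lyz (0.56), mpx (0.33), lmo2 (0.27), spi1b (0.20), gata2b (0.17) and runx1 (0.12). The list summed to 35.0 ± 5.14 FPKM in dark vehicle and 36.5 ± 3.74 FPKM in 25 µM libraries (SD, n = 4). Of 2 germ cell markers 0 were lower. Of 5 muscle progenitor markers 2 were higher, the myogenic factors myod1 and myog. The first went from 16.0 ± 2.26 to 34.6 ± 3.73 FPKM (SD, n = 4; 1.12 ± 0.14, limma adjusted p = 0.000143). The second changed by 0.69 ± 0.22 (limma adjusted p = 0.0424). In the same list myf5 (0.28 ± 0.22), pax3a (-0.11 ± 0.39) and pax7b (-0.16 ± 0.18) did not pass. At 25 µM under the cycle 1 of 11 blood progenitor and leukocyte markers was lower and 0 higher (limma; background 0.629% lower and 1.1% higher). It was myb (-0.63 ± 0.14, limma adjusted p = 0.0413), and no marker of the other lists of dividing cell types passed there. These lists were not compared with the set by a test, and their part in its change was not tested.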

How the data were processed

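Per the submitters' processing notes, the tools were HISAT2 2.0.5 (alignment) and featureCounts 1.5.0-p3 (counting). The authors deposited FPKM values in 1 table per photoperiod, and the tables had been scaled separately. Not given in the sources used here are the genome build, the annotation and whether counting used strand. The labels' protocols describe directional and non-directional libraries alike. Each FPKM value times gene length was a whole multiple of 1 step per library in 100% of cases (tolerance 0.001), which gave the fragments per gene. Of the 50 entries, 14 overlap another entry, 9 of them on the opposite strand, and may share fragments with it.

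Values were tested as log2(FPKM + 0.1) with limma 3.58.1 in R 4.3.3 over all genes with at least 0.5 FPKM in at least 4 libraries, with Benjamini-Hochberg adjustment and a threshold of 0.05. Dose comparisons were fitted on the 12 libraries of a photoperiod, and comparisons between photoperiods on all 24. The procedure was run on simulated data in which each gene varied independently. The entries here moved together by library, so that run does not cover their case, and no result rests on it. The design preferred a count test, and its fallback for FPKM was used. Values in every library are given for the 2 most abundant entries of each of 8 roles. The 4 largest and 4 smallest changes at 25 µM, and up to 6 genes by smallest p of each further list, are also named. The members and lists were chosen with earlier results of these data known. Alternatives were limma-voom on the fragments, scaling to total fragments, a pseudocount of 1, no filter, a fit of only the groups compared, 1 fit of all 24 libraries, a block for the replicate number, and leaving out each library.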

Additional observations from a re-analysis of the deposited data

Results flagged for a closer look

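Over the 102 groups of 4 libraries examined for the entries printed in full, 3 held a library far from the other 3 of its group by Dixon's criterion, where chance gives about 1 in 20. For cks1b, cycle vehicle replicate 4 read 12.5 FPKM and the others 7.91 to 8.44 FPKM. For nuf2, dark vehicle replicate 2 read 8.46 FPKM and the others 7.17 to 7.34 FPKM. For top2a, 25 µM dark replicate 1 read 8.20 FPKM and the others 4.03 to 4.58 FPKM.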

How the results depend on the processing

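The 25 µM result in darkness kept 41 to 43 entries past the threshold with each library left out in turn (median log2 fold change -1.61 to -1.29), and a pseudocount of 1 moved its median to -1.09. The count of 3 under the cycle at 25 µM became 21 with limma-voom, 22 with all 24 libraries in 1 fit, 8 with scaling to total fragments, 1 with no filter and 0 with only the groups compared, and ran from 0 to 27 with a library left out. Against 0.0025 µM under the cycle the count of 0 became 1 with limma-voom and 1 with all 24 libraries, and ran from 0 to 6. For the difference between photoperiods it ran from 0 to 1, the 1 being without 25 µM cycle replicate 4. For dark against cycle vehicle, the count of 1 became 5 with limma-voom, 3 with a pseudocount of 1, 2 with no filter and 16 with only the groups compared, and ran from 1 to 2 with a library left out. Apart from the fits whose background is given above, these counts have no share of all genes beside them. They therefore do not show how the set compares with other genes in those fits. The cause of these shifts was not tested.

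With the replicate number as a block, 25 µM in darkness gave 41 calls and 25 µM under the cycle 2, with no share of all genes beside them. For dark against cycle vehicle, the block fit compared the fitted levels of replicate 1 of each photoperiod, not the group means. Its 0 calls are therefore no check of that comparison. Over all expressed genes the numbers showed no strong pairing of the libraries, since 1 of 24 pairs had a correlation over 0.1 (range -0.12 to 0.11). A pairing that touches only part of the genes was not tested.

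Signs turned for ncaph at 25 µM in darkness without dark vehicle replicate 3 (0.55; range -0.52 to 0.55 with a library left out), and in the difference between photoperiods for values near 0. These were ccnb1 without 25 µM cycle replicate 1 (0.072; range -0.41 to 0.072), anln with a pseudocount of 1 (0.040), without 25 µM dark replicate 3 (0.11) and without 25 µM cycle replicate 1 (0.18; range -0.19 to 0.18), and smc2 with limma-voom (-0.015), with scaling to total fragments (-0.0052), and without dark vehicle replicate 4 (-0.045), 25 µM dark replicate 1 (-0.18), cycle vehicle replicate 3 (-0.11) or 25 µM cycle replicate 4 (-0.16; range -0.18 to 0.33). Signs were checked for 21 entries in each 25 µM comparison with vehicle and in the difference between photoperiods. In each 0.0025 µM comparison with vehicle they were checked for 3, and the other tested entries were not checked. The entries cks2, espl1, plk1, pttg1 and ncapg are limited by few or no fragments, and cenph and ncaph also rest on few.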

Other observations

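The cytochrome P450 gene cyp2k6 (ENSDARG00000098995), named after its values were seen and no mitosis gene, read 8.26, 8.36, 11.8 and 15.5 FPKM in the 25 µM cycle libraries, replicates 1 to 4, whose summed mitosis levels (without ENSDARG00000101618) were 322, 252, 194 and 124 FPKM. In the 25 µM dark libraries it read 4.92, 6.12, 3.71 and 7.04 FPKM beside sums of 176, 108, 98.1 and 115 FPKM. The vehicle libraries read at most 0.11 FPKM in darkness and 1.31 FPKM under the cycle.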
